A study of Mus musculus with 8 samples.

Results

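Among the mRNAs measured over 120 min in LPS-activated macrophages are those of 10 genes linked to growth arrest under stress, namely *Plk2*, *Plk3*, *Btg1*, *Btg2*, *Gadd45a*, *Gadd45b*, *Gadd45g*, *Cdkn1a*, *Mdm2* and *Ccng2*. Growth arrest genes is used here as a name for the set, although the product of *Mdm2* acts against p53 and so against arrest. They were taken by gene symbol from a table of 23143 genes, and all 10 had reads in each library. In the mouse genome (GRCm38), *Btg1*, *Gadd45b* and *Mdm2* lie on chromosome 10, *Plk2* and *Gadd45g* on 13, and *Btg2*, *Plk3*, *Ccng2*, *Gadd45a* and *Cdkn1a* on 1, 4, 5, 6 and 17. RNA came from RAW264.7 cells, a mouse macrophage line, of which 1 culture was left untreated (0 min, no LPS) and 7 were given LPS, a component of the outer membrane of Gram-negative bacteria, at 100 ng/ml for 15 to 120 min, in steps of 15 min up to 90 min. No sample carries any other agent, and the line is transformed and keeps dividing in culture. Only 1 library was made per time point. Differences in time therefore cannot be checked against replicates, and no p-values are given.

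Growth arrest genes of this kind act at several steps. When DNA is damaged or growth signals fail, the transcription factor p53 switches on *Cdkn1a*, whose product p21 blocks cyclin-dependent kinases, and *Mdm2*, whose product marks p53 itself for degradation. The GADD45 proteins bind and activate a kinase upstream of p38 and JNK, the BTG proteins bring mRNAs to the CCR4-NOT deadenylase, and the polo-like kinases PLK2 and PLK3 act in stress checkpoints. Many of these genes also belong to the immediate early response, in which cells transcribe a first set of genes from pre-existing factors within minutes of a signal such as LPS.

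At 60 min of LPS, 9 of the 10 mRNAs were at least 2-fold above the unstimulated library, a limit that 3.73% of the 12166 genes whose normalized count averaged 10 or more passed. With total counts as the scale, with or without the ribosomal RNA precursor *Rn45s*, 8 members passed, since *Btg1* did not. *Btg2* was the first to pass this limit, and *Gadd45b* was still climbing in the last library. *Btg2* stood 30.4-fold higher at 45 min (95% interval of the ratio 29.2 to 31.8), and *Gadd45b* stood 30.5-fold higher at 120 min (28.3 to 33.0). *Gadd45a* reached 36.7-fold at 90 min (26.2 to 53.1), from only 35 reads at 0 min. *Ccng2*, which codes for cyclin G2, an atypical cyclin linked to arrest, was the exception and stood at 0.55 of its starting level at 120 min (0.50 to 0.61). These intervals are exact binomial intervals that cover counting error only. Normalized counts are read counts divided by the median-of-ratios size factor of the library. In bulk RNA, a change in the amount of an mRNA per cell and a change in the share of cells that hold it cannot be told apart.

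The libraries held 100250892 to 159077286 counted reads, and the 10 genes together took 0.022% of them at 0 min and 0.104% at 60 min. *Rn45s* took 8.18% to 9.11% of the counts at 0, 30, 60 and 120 min and 12.96% to 20.53% at 15, 45, 75 and 90 min. The labels name no batch for these libraries. Scaling by total counts instead of size factors lowers the log2 ratio of every gene by 0.03 to 0.33, most at 75 min. Of 9 macrophage markers in the table, 8 were above the minimum, *Mertk* was not, and none of 9 markers of other cell types reached it. *Cd14* and *Fcgr1*, both macrophage markers, moved during the time course, to 3.66-fold and 0.38-fold at 120 min.

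Sequence features of the genes are given before their values. The window of 250 bases before the annotated start site and 50 from it on (RefSeq, GRCm38.p6) was searched on both strands for short motifs, chosen with results of these data known. The cyclic AMP response element TGACGTCA, bound by CREB and ATF factors, was found in *Plk2* and *Btg2* and in 1.79% of 32851 windows. The first 5 letters of it, TGACG, also occur in *Plk3*, *Btg1* and *Mdm2* and in 20.8% of windows. The stretches of *Plk2* (chr13:110394924-110395043, plus strand), *Btg2* (chr1:134079256-134079375, minus strand) and *Plk3* (chr4:117133994-117134113, minus strand) are shown because these genes hold such letters and had passed 2-fold by 30 min. *Gadd45a* and *Cdkn1a* had passed 2-fold by then as well and hold neither the element nor TGACG. *Btg1* and *Mdm2* hold TGACG but were at 1.27-fold and 1.41-fold at 30 min. Capitals mark the response element, or in *Plk3* its first 5 letters.
Plk2: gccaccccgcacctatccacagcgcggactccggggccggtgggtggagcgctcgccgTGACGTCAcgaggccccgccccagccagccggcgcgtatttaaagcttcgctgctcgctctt
Btg2: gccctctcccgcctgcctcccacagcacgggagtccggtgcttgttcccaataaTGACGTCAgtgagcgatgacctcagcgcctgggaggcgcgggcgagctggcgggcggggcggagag
Plk3: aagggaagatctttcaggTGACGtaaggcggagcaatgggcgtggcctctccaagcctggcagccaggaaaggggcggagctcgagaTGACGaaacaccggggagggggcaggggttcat

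A TATA box, written TATAAA, was found in *Btg1*, *Gadd45b* and *Gadd45g* and in 13.6% of windows. The stretches directly before the start sites of *Gadd45b* (chr10:80930011-80930090, plus strand) and *Gadd45g* (chr13:51846595-51846674, plus strand) are shown because these paralogs took opposite courses after 60 min while both have this box, here in capitals.
Gadd45b: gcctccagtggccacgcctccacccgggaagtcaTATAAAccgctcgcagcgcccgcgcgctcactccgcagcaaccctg
Gadd45g: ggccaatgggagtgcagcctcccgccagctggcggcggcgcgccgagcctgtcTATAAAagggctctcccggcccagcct
The p53 half-site consensus was found in *Gadd45a*, *Cdkn1a* and *Mdm2* and in 8.36% of windows, the GC box GGGCGG in all members but *Gadd45g* and in 35.7%, and the FOXO site GTAAACA in *Btg1* and *Mdm2* and in 3.65%. Members are counted by gene over any of their windows, whereas the shares are by window. *Cdkn1a* has its p53 half-sites in window 1 and its GC boxes in window 2. The kappaB consensus, the CArG box, the AP-1 site TGANTCA and the EGR site GCGGGGGCG were found in 8.46%, 1.63%, 7.81% and 2.91% of windows and in none of the members. A match is a description of letters, and some of these motifs overlap one another.

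The 3′UTRs of the matched GENCODE transcripts hold the pentamer AUUUA, the core of AU-rich elements that bind proteins controlling mRNA stability and translation, in 8 of the 10 genes and in 67.3% of 11301 genes above the minimum. Its density was 12.05 per kilobase in *Plk3*, 5.99 in *Mdm2* and 4.86 in *Ccng2*, and between 2.26 and 3.55 in *Plk2*, *Btg1*, *Btg2*, *Gadd45a* and *Cdkn1a*, against a median of 1.24 over these genes. *Gadd45b* and *Gadd45g* hold none in 558 and 489 bases. Windows of 30 bases with the most pentamers are shown, in capitals, for the genes in which a window holds more than 1. They begin at base 251 of the 3′UTR of *Plk3*, 375 of *Mdm2*, 521 of *Plk2* and 1323 of *Btg2*.
Plk3: uuAUUUAuuaacagacAUUUAUUUAuuggg
Mdm2: auaagaacAUUUAAUUUAUUUAgugucuuu
Plk2: uAUUUAuuacagccccaagagcaguAUUUA
Btg2: aAUUUAuuuguagaugugugcaauAUUUAc

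The count of members past 2-fold above 0 min was 1 at 15 min (*Btg2*), when 0.74% of all genes passed, and 5 at 30 min, when 1.68% passed. It was 8 at 45 min (3.4% of all genes), 9 at 60 min, and 8 at each of 75, 90 and 120 min (4.43%, 5.43% and 6.39%). Over the whole time course, 9 of 10 members passed at least once, as did 8.61% of all genes. No member was 2-fold below 0 min at any time, whereas 0.411%, 0.419%, 1.36% and 1.98% of all genes were in the libraries up to 60 min, and 3.12%, 3.83% and 6.02% in the 3 libraries after that. The median log2 ratio of the members went through 0.12, 0.86 and 1.90 in the first 3 libraries after LPS to 2.08 at 60 min, and stayed between 2.08 and 2.21 afterwards. The median over all genes above the minimum lay between -0.01 and 0.02 at each time. Size factors taken from the median of gene ratios hold this value near 0. The map of log2 ratios shows these values gene by gene.

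**Figure D1:**
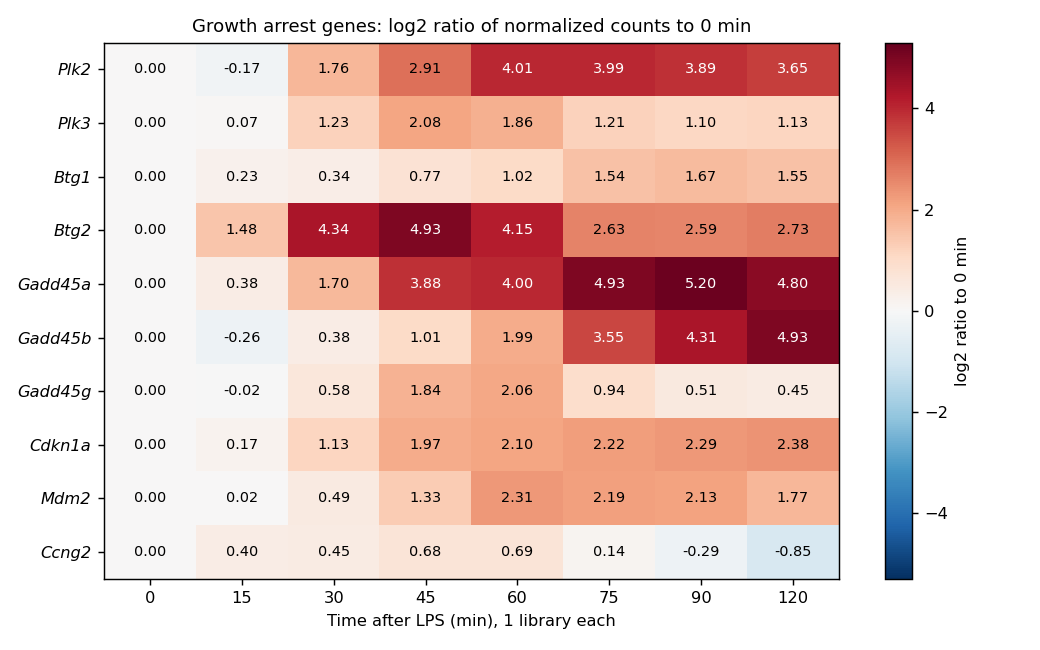
Log2 ratio of the normalized count to 0 min for each of the 10 growth arrest genes (rows) in each library (columns, minutes after LPS). Red is higher and blue lower than 0 min, and *Btg2* at 45 min (4.93) and *Gadd45a* at 90 min (5.20) are among the darkest cells while *Ccng2* turns below 0 min at 90 min (-0.29) and is lowest at 120 min (-0.85).

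*Plk2* and *Plk3* code for polo-like kinases that respond to stress, unlike their relative PLK1, which drives mitosis. The normalized count of *Plk2* was 919.7 before LPS, and 819, 3107, 6928, 14865, 14651, 13638 and 11528 in the 7 libraries after it, in time order. It was low in the first pair of libraries, climbed from 30 to 60 min and then stayed high. The ratio to 0 min was 16.2 at 60 min (15.2 to 17.2) and still 12.5 at 120 min (11.8 to 13.3). From 45 to 60 min, *Plk2* more than doubled (2.15-fold, 2.08 to 2.21) and was the 1 member past 2-fold in this step, which 1.3% of all genes passed. With total counts as the scale, *Gadd45b* and *Mdm2* passed as well, making 3.

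*Plk3* was highest earlier than *Plk2* and rose by less. The 8 libraries gave, in time order, normalized counts of 1089, 1140, 2562, 4602.5, 3967, 2516, 2342 and 2381. The highest library was 45 min, at 4.23-fold (3.97 to 4.50), and the ratio lay between 2.15 and 2.31 from 75 to 120 min. With total counts as the scale *Plk3* was under 2-fold in these 3 libraries (1.796 to 1.901). Per length, *Plk3* (4.19 rpkm) was above *Plk2* (2.99 rpkm) before LPS, the intervals of both overlapped at 30 min (9.66 and 9.91 rpkm), and *Plk2* was far above it at 120 min (32.6 against 7.96 rpkm). Rpkm are reads scaled to a kilobase of unique 58-base positions of the gene and to the total reads of the library.

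*Btg1* and *Btg2* code for small antiproliferative proteins of 1 family. *Btg2* went from a normalized count of 1919.7 before LPS to 5348, 38815 and 58425 in the libraries of 15 to 45 min, and then to 34051, 11881, 11519 and 12708 in those of 60 to 120 min. It was the only member past 2-fold at 15 min (2.79-fold, 2.65 to 2.93), and between 15 and 30 min it grew another 7.26-fold (7.06 to 7.46). The level came down after 45 min, and at 75 min it was 0.35 of that at 60 min (0.34 to 0.36). From 75 to 120 min *Btg2* held a plateau, at 6.19-fold and 6.62-fold over 0 min in the first and last of these libraries.

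*Btg1* climbed slowly and without a turn before 90 min. Its normalized counts from 0 to 120 min were 8255, 9674, 10461, 14080, 16763, 24062, 26344 and 24154. It was at the 2-fold limit at 60 min (2.03-fold, 1.98 to 2.08, but 1.90 with total counts as the scale) and was highest at 90 min (3.19-fold, 3.12 to 3.27). Before LPS, *Btg1* was the more abundant of the pair per length (14.9 against 6.38 rpkm). At 45 min the order was inverted (22.3 against 170 rpkm), and at 120 min the levels were close, at 37.9 rpkm for *Btg1* and 36.7 rpkm for *Btg2*.

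**Figure D2:**
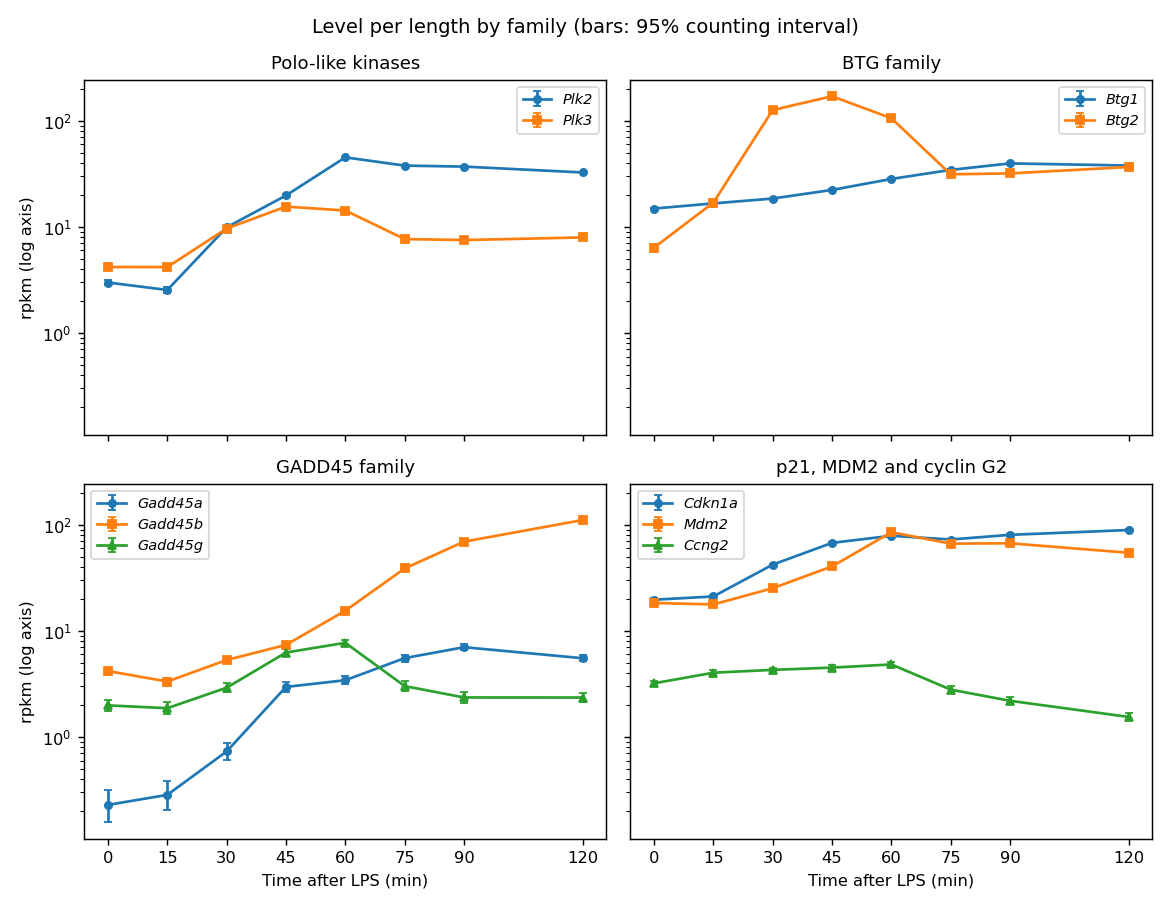
Level per length (rpkm, log axis) of the 10 genes by time after LPS in minutes, in panels by family, with exact Poisson 95% intervals that cover counting error only. *Btg2* crosses *Btg1* upwards and comes back to it, and *Gadd45b* climbs to 111 rpkm at 120 min while *Gadd45g* returns to 2.36 rpkm.

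The 3 GADD45 genes took different courses. *Gadd45a*, the classical DNA damage inducible member, was close to absent before LPS, with raw counts of 35, 41, 119, 391, 538, 648, 866 and 1026 from 0 to 120 min. The corresponding normalized counts were 29.9, 39.0, 97.4, 442, 479, 912.5, 1099.5 and 831.5. It stepped up between 30 and 45 min, paused at 60 min (1.08-fold over 45 min, 0.95 to 1.24) and stepped up again by 75 min (1.90-fold over 60 min, 1.70 to 2.14). Per length it remained a minor mRNA, at 0.229 rpkm at 0 min and 7.02 rpkm at its highest.

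*Gadd45b*, the member known as a target of NF-κB and TGF-β signaling, moved late. Unstimulated cells had a normalized count of 576, followed by 481, 747, 1157 and 2281 up to 60 min and by 6724, 11437 and 17567 in the 3 later libraries. Each library after 15 min was above the one before. The ratio to 0 min was 3.96 at 60 min (3.64 to 4.32), and the level grew by another 7.70-fold (7.39 to 8.03) from 60 to 120 min. By then *Gadd45b* had become the member with the highest level per length, from the fifth place at 0 min, which it shared with *Plk3* within counting error.

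*Gadd45g*, known as a cytokine-responsive member, was transient. Over the 8 libraries its normalized counts ran 226, 223, 338, 809.8, 938, 432, 321 and 308. It was past 2-fold in the 45 and 60 min libraries alone, with 3.59-fold (3.11 to 4.14) and 4.16-fold (3.63 to 4.77). By 120 min it was down to 0.33 of the 60 min level (0.29 to 0.37) and at 1.36 times that of 0 min (1.16 to 1.60).

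The step from 60 to 75 min split the members. *Gadd45b* was 2.95-fold higher at 75 than at 60 min (2.81 to 3.09), which 0.797% of all genes were at 2-fold or more. *Btg2* and *Gadd45g* were more than 2-fold lower (0.35 and 0.46 of the level at 60 min), as were 0.896% of all genes. *Plk3* and *Ccng2* stood at 0.63 and 0.68, *Gadd45a* and *Btg1* at 1.90 and 1.44, and *Plk2*, *Cdkn1a* and *Mdm2* between 0.92 and 1.09. These libraries differ in *Rn45s* (8.27% and 20.53% of counts), and the same numbers of members were past 2-fold in each direction when totals without *Rn45s* set the scale.

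**Figure D3:**
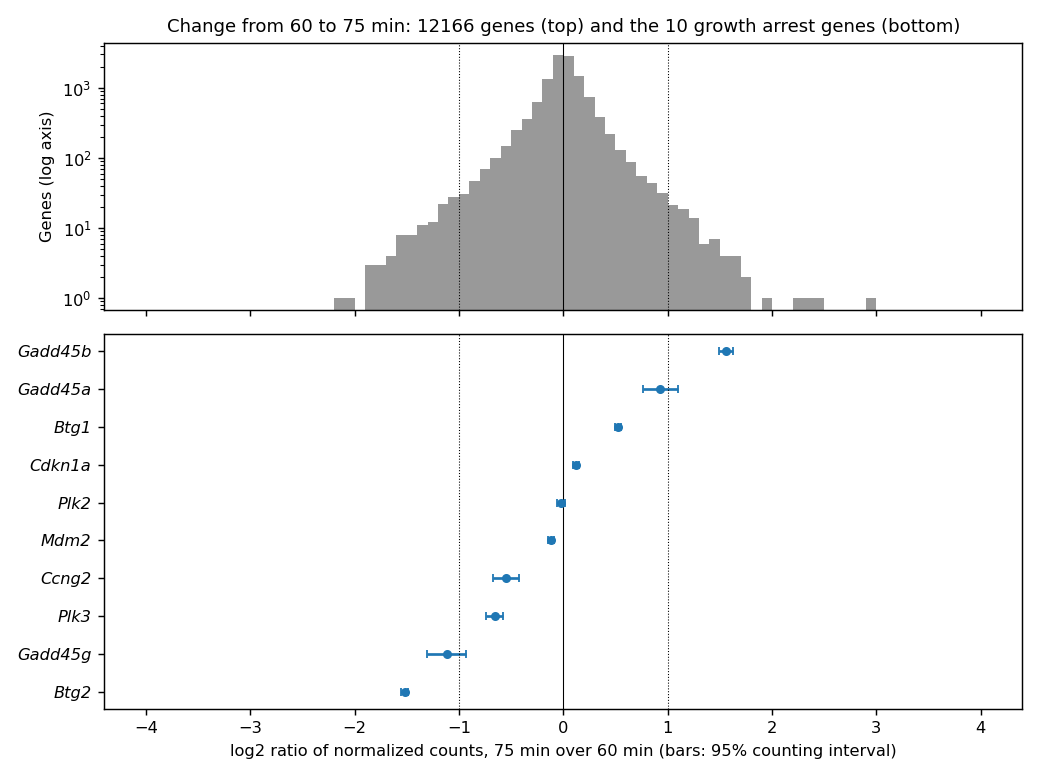
Log2 ratio of normalized counts between the 75 and the 60 min library for 12166 genes as a histogram (top, log axis, 1 added to each normalized count) and for the 10 growth arrest genes with 95% counting intervals (bottom). Dotted lines mark 2-fold, beyond which *Gadd45b* lies on the right and *Btg2* and *Gadd45g* on the left.

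*Cdkn1a*, coding for the cyclin-dependent kinase inhibitor p21, was the most abundant member per length before LPS (19.7 rpkm) and rose to a plateau that still increased slightly. A normalized count of 4366 at 0 min was followed by 4912, 9539, 17074, 18692, 20320, 21383 and 22797. On this scale no library was below the one before it, whereas per length and total counts the level was 78.9 rpkm at 60 min (77.8 to 80.0) and 72.8 rpkm at 75 min (71.6 to 74.0). The ratio to 0 min was 2.19 at 30 min (2.11 to 2.26) and 5.22 at 120 min (5.07 to 5.38).

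*Mdm2*, coding for the ubiquitin ligase that keeps p53 low, lagged behind *Cdkn1a* and then turned. The normalized counts were 6257, 6352, 8791, 15764, 31013, 28568, 27379 and 21402 in time order. At 30 min it stood at 1.41-fold (1.36 to 1.45), when *Cdkn1a* had already passed 2-fold. It was highest at 60 min (4.96-fold, 4.83 to 5.08) and 0.69 of that at 120 min (0.68 to 0.70).

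*Ccng2* did not pass 2-fold against 0 min in either direction. From a normalized count of 989.8 it went to 1306, 1352, 1585 and 1593 by 60 min, and to 1087, 811 and 549 in the libraries after that. The ratio was 1.61 at 60 min (1.49 to 1.73) before the level dropped, and the 120 min library stood at 0.34 of the 60 min library (0.31 to 0.38). With total counts as the scale, the ratio of *Ccng2* at 120 min was 0.48, which is past 2-fold.

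**Figure D4:**
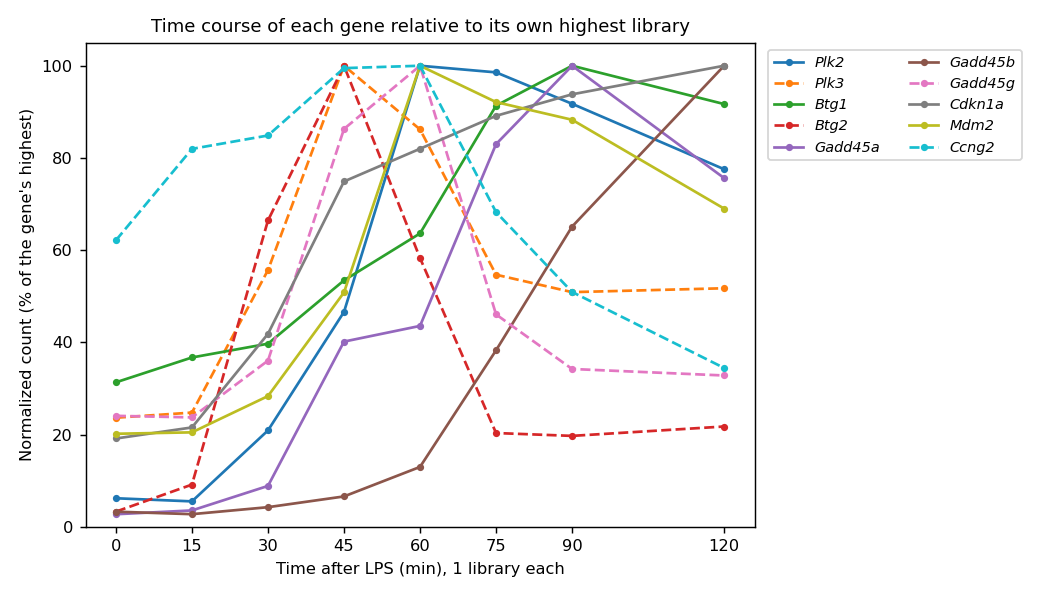
Normalized count of each gene as a percentage of its own highest library (y axis from 0) by minutes after LPS, 1 library each. Dashed lines mark *Plk3*, *Btg2*, *Gadd45g* and *Ccng2*, which are at 0.22 to 0.52 of their highest level at 120 min, and solid lines mark the other 6 genes, which are at 0.69 of it or more.

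The highest library was 45 min for 2 members, 60 min for 4, 90 min for 2 and 120 min for 2. Expression patterns were then called from maxima and minima as the study's methods define them, with a log2 ratio beyond 0.5 and an unadjusted limit of 0.05 in a test that compares single libraries, not conditions. Group g1, with a first maximum at or after 60 min, held 7 members (*Plk2*, *Btg1*, *Gadd45a*, *Gadd45b*, *Gadd45g*, *Cdkn1a* and *Mdm2*) and 9.64% of all genes above the minimum. Group g3, with a maximum before 60 min and a later minimum, held *Plk3* and *Btg2*, and 1.07% of all genes. *Ccng2* was in g2, with a first minimum at or after 60 min, as were 9.99% of all genes. Without the 45 min library *Plk3* was placed in g1, and without the 60 min library *Gadd45g* was placed in g3. Without the 90 or the 120 min library *Ccng2* was placed in g1.

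Levels of different genes can be set side by side per length. At 0 min the order was *Cdkn1a* (19.7 rpkm), *Mdm2* (18.3), *Btg1* (14.9), *Btg2* (6.38), *Gadd45b* and *Plk3* (4.19 each), *Ccng2* (3.21), *Plk2* (2.99), *Gadd45g* (1.99) and *Gadd45a* (0.229). The intervals of *Gadd45b* and *Plk3*, and those of *Ccng2* and *Plk2*, overlapped. At 60 min *Btg2* led with 105.9 rpkm, followed by *Mdm2* (85.1) and *Cdkn1a* (78.9). At 120 min *Gadd45b* led with 111 rpkm, followed by *Cdkn1a* (89.4), *Mdm2* (54.6), *Btg1* (37.9), *Btg2* (36.7) and *Plk2* (32.6), with *Plk3* (7.96), *Gadd45a* (5.53), *Gadd45g* (2.36) and *Ccng2* (1.55) at the end. No neighbors in this last order had overlapping intervals, which do not cover variation between cultures.

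The time courses of the members were compared by Pearson's correlation coefficient of log2 (normalized count + 1) over the 8 libraries, as a description, since all values share the same libraries and scale. The median over 45 pairs was 0.63, and 13 pairs were above 0.9. *Gadd45a* and *Cdkn1a* (0.99), *Plk2* and *Cdkn1a* (0.98) and *Plk2* and *Mdm2* (0.98) were the closest pairs. *Plk3* and *Btg2* had 0.92, whereas the paralogs *Gadd45b* and *Gadd45g* had 0.11. The 6 negative values all involved *Ccng2*, the lowest with *Gadd45b* (-0.70).

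Among 1571 genes that averaged a normalized count of 100 or more and ranged over at least 2-fold, the genes closest to *Btg2* were *Egr1* (0.99), an immediate early transcription factor, *Ppp1r15a* (0.97), also known as *Gadd34*, and *Nfkbid* (0.96), an inhibitor of NF-κB. *Cdkn1a* was closest to *Kdm6b* (0.999), *Nlrp3* (0.999), which codes for an inflammasome receptor, and *Mir22hg* (0.997). *Gadd45b* was closest to *Gnat3* (0.998), *Slc6a8* (0.996) and *Ell2* (0.996), and *Plk3* to *Ier5*, *Tgif1* and *Aoc2* (0.98 each). *Plk2* was closest to *Vmn2r90* (0.997) and *Bzrap1* (0.996), and *Mdm2* to *Cldn12*, *Hmgcs1* and *Usp36* (0.99 each). For *Btg1* they were *Jmjd1c*, *Zc3h11a* and *Erbb2ip* (0.99 each), for *Gadd45a* *Filip1l*, *Rbbp6* and *Srxn1* (0.99 each), and for *Gadd45g* *Lars2*, *Itprip* and *Ppp1r10* (0.95 to 0.98). For *Ccng2* they were *Lrch1* (0.99), *Ubash3b* (0.96) and *Cdc14a* (0.96). With so few libraries, high values are common, and *Cdkn1a* rose 5.22-fold where *Kdm6b* rose 36.2-fold.

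Other p53 target genes were set beside *Cdkn1a* and *Mdm2*. Of 28 listed genes, 24 were above the minimum, of which 6 were at least 2-fold higher at some time and 4 at least 2-fold lower, *Ddit4* being in both counts, against 8.61% and 8.75% of all genes. *Trp53*, coding for p53, stayed between 0.93 and 1.16 times its 0 min level. The highest ratios belonged to the death receptor gene *Fas* (11.4 at 120 min), *Ddit4* (7.71 at 45 min), an inhibitor of mTORC1, and *Sertad1* (4.22 at 60 min). The lowest belonged to *Sesn1* (0.14 at 120 min), coding for a sestrin, *Ddit4* (0.45 at 120 min) and *Polk* (0.48 at 75 min), a translesion DNA polymerase. Its paralog *Sesn2* went the other way from *Sesn1* and was at 3.597 at 75 min. *Bax*, *Ccng1*, *Ei24* and *Gtse1*, all p53 targets, stayed between 0.83 and 1.12. The list's median log2 ratio lay between 0.04 and 0.18 at all times.

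**Figure D5:**
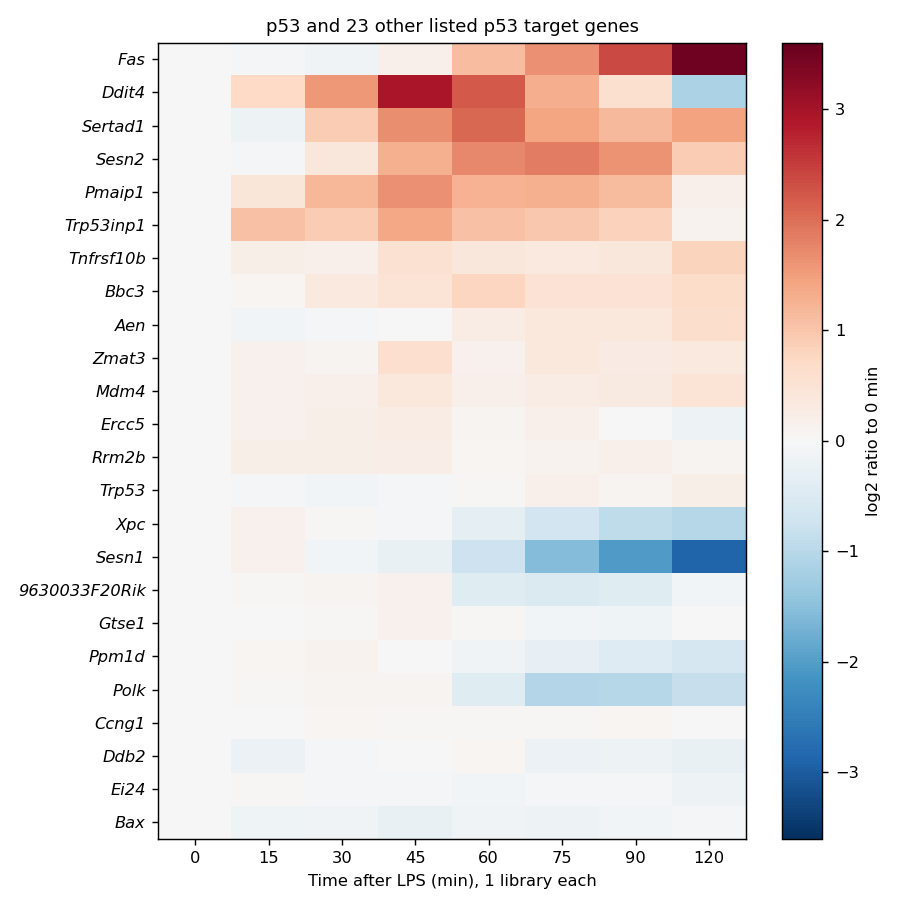
Log2 ratio to 0 min (color) of *Trp53* and 23 listed p53 target genes (rows, ordered by their highest value) in each library (columns, minutes after LPS). Most rows are pale, *Fas* is darkest red at 120 min (ratio 11.4) and *Sesn1* darkest blue at 120 min (ratio 0.14).

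Genes of the members' own families and partners were also counted. None of 6 relatives above the minimum (*Plk1*, *Plk4*, *Tob1*, *Tob2*, *Ccng1* and *Ccni*), of 5 subunits of the deadenylase bound by BTG proteins, or of 7 kinases downstream of GADD45 proteins was past 2-fold in either direction, and most genes of the table were not either, since 8.61% were higher and 8.75% lower at some time. In these lists the highest and the lowest ratios were 1.59 for *Tob1* at 45 min and 0.62 for the same gene at 120 min, 1.60 for *Cnot7* and 0.73 for *Cnot8* at 120 min, and 1.39 for *Map2k3* at 75 min and 0.56 for *Mapk14*, coding for p38α, at 120 min (0.49 with total counts as the scale). *Btg3* had no read in any library, and whether it has positions that no other gene matches was not checked.

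*Ccng2* is a known target of FOXO transcription factors, which PI3K and AKT signaling keeps out of the nucleus. Of 10 FOXO factors and target genes above the minimum (12 listed), 3 were at least 2-fold higher and 2 at least 2-fold lower at some time, where 8.61% and 8.75% of all genes were. *Bcl6* was highest, at 4.04-fold at 90 min, followed by *Klf2* (2.82-fold at 45 min) and *Cited2* (2.03-fold at 60 min). The 2 genes past 2-fold lower were *Txnip*, coding for an inhibitor of thioredoxin, and *Pik3ip1*. *Txnip* was down to 0.16 at 60 min, and *Pik3ip1*, with 58 reads at 0 min, to 0.15 at 120 min. *Klf2* was down to 0.52 at 75 min and *Foxo3* to 0.54 at 120 min (0.47 with total counts as the scale). Total counts as the scale shift log2 ratios at 75 min by -0.33, which puts *Klf2* past 2-fold lower as well. The list's median log2 ratio was 0.25 at 15 min and -0.56 at 120 min, when *Ccng2* itself was at -0.85. The 2 differed in sign at 60 min, with the list at -0.20 and *Ccng2* at 0.69, and at 75 min, at -0.11 and 0.14. They had the same sign at 30, 45 and 90 min, with 0.12 and 0.68 at 45 min and -0.20 and -0.29 at 90 min.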

How the data were processed

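RNA of 8 RAW264.7 cultures, 1 per time point, was sequenced by the authors after removal of ribosomal RNA with Ribo-Zero and directional library preparation. The samples are labelled as a cytoplasmic RNA fraction, whereas the methods describe total RNA. The deposited values are raw counts of reads, summed by the authors over the transcripts that share a gene symbol. According to the methods, reads were mapped with Bowtie (version not given in the sources used here) to the RefSeq transcriptome (mm10) with at most 2 mismatches, and reads matching more than 1 gene were discarded. The submitters' processing notes name CASAVA 1.8.2 and DESeq 1.10.1. Whether counting used strand is not given in the sources used here.

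Median-of-ratios size factors, ratios with exact conditional binomial 95% intervals and rpkm with exact Poisson 95% intervals were computed with scipy 1.17.1, statsmodels 0.14.6, numba 0.67.0, numpy 2.4.6 and pandas 2.3.3 under Python 3.11.15 and plotted with matplotlib 3.10.9. Both kinds of interval cover counting error only. No test across replicates was possible with 1 library per time point, so called means past 2-fold. Patterns followed the settings of the methods (blind dispersion of 0.0287 plus 0.853 divided by the mean, exact negative binomial comparison of 28 pairs of libraries), with code tested on simulated data. For rpkm, unique 58-base positions were counted in GENCODE vM21 transcripts matched by RefSeq accession, and these were 100% of the positions of each member. Shares of all genes refer to a mean normalized count of at least 10, which 12166 genes and all 10 members passed.

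The members, gene lists and motifs were chosen with earlier results of these data known. Genes named beside the members are the 3 closest in time course to each (1 of them is not reported here), the up to 3 highest and lowest of each list with a mean of at least 100, and *Rn45s*. *Trp53*, *Sesn2*, *Bax*, *Ccng1*, *Ei24*, *Gtse1*, *Pik3ip1*, *Btg3*, *Cdkn2a*, *Cdkn2b*, *Cdkn1c*, *Cdk4*, *Mertk*, *Cd14* and *Fcgr1* were named after their values were seen. *Tigar* was matched by an older symbol. Alternatives were other scales (total counts, with and without *Rn45s*, and TMM factors of edgeR 4.0.16 in R 4.3.3), limits, filters, dispersions, transcript lengths and libraries left out. Spike-in transcripts and the study's ribosome load arrays were not used here.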

Additional observations from a re-analysis of the deposited data

How the results depend on the processing

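The scale changed counts of members by 1 at several times. With total counts, 7 members instead of 8 were at least 2-fold above 0 min at 45 min (without *Gadd45b*) and in the last 3 libraries (without *Plk3*), and 8 instead of 9 at 60 min (without *Btg1*). Totals without *Rn45s* gave the same except for 8 at 75 min, and TMM factors changed only the 45 min count, to 7. With total counts, with or without *Rn45s*, 1 member (*Ccng2*) was at least 2-fold below 0 min at 120 min instead of 0, as with a limit of 1.5-fold or the 15 min library as the reference. With total counts, 3 members (*Plk2*, *Gadd45b* and *Mdm2*) instead of 1 were at least 2-fold higher at 60 than at 45 min, a comparison of scales added after the data were seen. With a limit of 1.5-fold, 3 were higher in this step and 2 from 60 to 75 min. With a limit of 3-fold, 0 members were past it at 15 min, 3 at 30 min, and 0 in either direction from 60 to 75 min or upwards from 45 to 60 min. Patterns were the same with total counts and TMM factors. With a log2 limit of 1 or with Benjamini-Hochberg adjustment, *Ccng2* fell into g0 (g0 1, g2 0) and 1 member stayed in g3, since *Plk3* no longer had a later minimum. With the dispersion trend of edgeR, *Ccng2* also fell into g0 (g0 1, g2 0). With the 0, 30, 60 and 120 min libraries alone, g3 held 1 member. Leaving out each of the 7 libraries after 0 min in turn gave 0 to 1 members in g2, 1 to 3 in g3, 6 to 8 in g1 and 0 in g0. The median coefficient between members was 0.51 on linear counts, 0.57 as Spearman's rho and 0.71 without the 45 min library. Over all these counts and the coefficient, 142 values under alternatives stayed near the value reported (counts within 1.5-fold). These include the counts of members at least 2-fold below 0 min up to 90 min, where 0 was set against 0. The other 27 values did not stay near. The cause of these shifts was not tested. The share of all genes past 2-fold at 60 min was 10.3% with no filter on low counts. Using the longest annotated transcript lowers *Ccng2* at 0 min from 3.21 to 1.97 rpkm, next to *Gadd45g* (1.99). Ratios of *Gadd45a* rest on 35 reads at 0 min, and no interval covers variation between cultures. No paired analysis was possible because each time point has 1 library and no comparison rests on a test across replicates.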

Other observations

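Among the other inhibitors of cyclin-dependent kinases, none took the course of *Cdkn1a*. Of 7 listed, 4 were above the minimum, of which 0 were at least 2-fold higher and 2 at least 2-fold lower than at 0 min at some time, where 8.61% and 8.75% of all genes were. *Cdkn1b*, coding for p27, was at 0.44 and *Cdkn2d*, coding for the INK4 protein p19, at 0.37 of the 0 min level at 120 min, and *Cdkn2c* stood at 0.61. *Cdkn3* was the highest of the list, at 1.16 at 90 min. *Cdkn2a*, *Cdkn2b* and *Cdkn1c* had no read in any library. With 3 counts as the limit for a zero, this allows at most 0.0189 to 0.0299 cpm (counts per 1e6 counts of the library). Whether these genes have positions that no other gene matches was not checked, and reads matching more than 1 gene were discarded. The list's median log2 ratio was -0.96 at 120 min, when *Cdkn1a* was at 2.38.

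Of 8 G1 cyclins and their kinases, 1 was past 2-fold, namely *Cdk6* at 120 min (2.49-fold), where 8.61% of all genes were higher and 8.75% lower at some time. The next in order was *Ccnd2* at 1.29 at 120 min. *Ccnd1*, coding for cyclin D1, was at 0.51, *Ccne1*, coding for cyclin E1, at 0.56 and *Ccnd3* at 0.62 at 120 min, while *Cdk4* stayed between 0.91 and 0.98. The median log2 ratio of this list moved from -0.06 at 60 min to -0.48 at 120 min. With total counts as the scale, *Ccnd1* (0.44) and *Ccne1* (0.49) were past 2-fold at 120 min, and with TMM factors *Ccnd1* was (0.499).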
